A study of Mus musculus with 9 samples.

Results

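The genes described here are 10 classical targets of the hypoxia response, chosen by name: Vegfa, Bnip3, Adm, Egln1, Egln3, Ndrg1, P4ha1, Plod2, Pdk1 and Ankrd37. Every probe set that the platform annotation gives to one of these symbols was taken, which gave 19 of the 22626 probe sets in the table that are not array controls. They measure 9 of the 10 genes. Ankrd37 has none under that symbol and has no value below. Ndrg1 has 5 probe sets, Adm and Bnip3 have 1 each, and each of the other 6 genes has 2.

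The cells were TAMH, an immortalised mouse hepatocyte line that carries a TGF-alpha transgene, labelled as C57BL/6 liver cells. They were exposed to acetaminophen (APAP) at 2 mM, to its meta regioisomer (AMAP) at 2 mM, or to control culture medium, and harvested after 2, 6 or 24 h. The compounds carry the same groups on the ring and differ in where the hydroxyl group stands, para in APAP and meta in AMAP. RNA was hybridised to 9 Affymetrix 430A_2 arrays, 1 for each treatment and time, so differences at 1 time lack replicates and are reported with no p-value. Values are log2 expression values after RMA, a difference of 1 is 2-fold, and the number of arrays limits the precision. In RNA from whole dishes, fewer cells expressing a gene and less of its RNA per cell cannot be told apart.

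In cells with enough oxygen, prolyl hydroxylases mark the alpha subunits of the hypoxia-inducible factors (HIF), which are then bound by the von Hippel-Lindau protein and degraded. When oxygen or the enzymes' iron and 2-oxoglutarate are short, HIF alpha pairs with ARNT and binds short DNA elements near genes of vessel growth, glucose metabolism, matrix assembly and mitochondrial turnover. Several of these genes also respond to other stress pathways, so they are markers of the hypoxia response without being specific to it. In the liver the response is known from the oxygen gradient along the sinusoid.

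Of the arrays 3 stood apart by the bacterial dap spike-in, an RNA added from outside. The log2 ratio of its middle to its 3′ probe set was -1.72 on the 6 h APAP array, -1.58 on the 24 h APAP array and -1.94 on the 24 h AMAP array, while the other 6 arrays lay between -0.60 and -0.44. The hepatocyte label held, since 9 of 9 measured hepatocyte markers were expressed, with Alb between 12.80 and 13.28. None of the 5 endothelial markers was expressed, and 1 of 5 macrophage markers (Cd14) and 1 of 6 fibroblast markers (Dcn) were. Of the cholangiocyte markers, Krt7, Krt19 and Sox9 were expressed and Epcam was not. A probe set or gene is called expressed where its mean over the 9 arrays reached 5.66, the median of all probe-set means. Of the 19 probe sets 14 passed, and they belong to 7 genes. Adm and Pdk1 had no probe set above that level.

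HIF binds DNA at a core of ACGTG or GCGTG. Both were searched on both strands in the 250 bases before the transcription start, from RefSeq on GRCm38.p6, which lists 8 of the 10 genes; Ndrg1 and Plod2 are named only. These 8 genes have 10 windows, of which 8 held a match, and 38.6% of the 32851 windows of all genes held one. Windows are printed for Vegfa and Bnip3, which read lower in APAP than in AMAP at 2 h. Those of Adm, a dim gene that read above a low control at 2 h, and of the sensor Egln1 follow the same layout. Egln1 differed little from control in AMAP at 2 h. The order is 5′ to 3′ on the strand of the gene, with each match in capitals. A match is a run of letters and was not tested as a binding site.
Vegfa: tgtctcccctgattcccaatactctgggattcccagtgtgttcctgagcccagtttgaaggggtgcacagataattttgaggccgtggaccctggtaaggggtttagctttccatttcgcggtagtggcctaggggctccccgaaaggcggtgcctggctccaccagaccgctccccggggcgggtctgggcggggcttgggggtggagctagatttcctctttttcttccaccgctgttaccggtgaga
Adm: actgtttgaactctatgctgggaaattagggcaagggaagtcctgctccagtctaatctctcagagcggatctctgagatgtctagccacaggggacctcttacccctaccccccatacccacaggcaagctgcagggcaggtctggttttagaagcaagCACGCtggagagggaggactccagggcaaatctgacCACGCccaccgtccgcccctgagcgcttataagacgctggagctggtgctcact
Bnip3: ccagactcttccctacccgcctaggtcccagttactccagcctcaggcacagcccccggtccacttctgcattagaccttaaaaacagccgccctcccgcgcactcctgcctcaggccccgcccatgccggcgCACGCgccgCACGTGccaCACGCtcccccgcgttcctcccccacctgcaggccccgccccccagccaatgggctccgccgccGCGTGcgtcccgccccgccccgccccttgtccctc
Egln1: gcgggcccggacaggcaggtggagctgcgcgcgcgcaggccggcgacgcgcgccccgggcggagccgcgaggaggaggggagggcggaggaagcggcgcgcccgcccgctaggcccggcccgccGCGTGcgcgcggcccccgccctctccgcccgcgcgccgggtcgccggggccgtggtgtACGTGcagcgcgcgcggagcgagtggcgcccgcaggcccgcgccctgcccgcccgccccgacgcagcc

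The Vegfa window, chr17:46032378-46032627 on the minus strand, held no match, while a second, downstream Vegfa start has a window that held 2 and is not printed. The Adm window, chr7:110627407-110627656 on the plus strand, held 2, both of the GCGTG form read on the opposite strand. The Bnip3 window, chr7:138909507-138909756 on the minus strand, held 5, of which 2 overlap because CACGTG holds ACGTG on either strand. The Egln1 window, chr8:124949255-124949504 on the minus strand, held 2, 1 of each form.

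At 2 h Ndrg1, Vegfa and Plod2 read higher in AMAP than in control, while Bnip3 read lower in APAP than in control. Ndrg1, Vegfa, Plod2 and Bnip3 all read lower in APAP than in AMAP, by 0.45 to 1.14 log2 over their 10 probe sets, of which 5 are of Ndrg1. The HIF prolyl hydroxylases among the members, Egln1 and Egln3, went the other way, with higher readings in APAP than in AMAP, by 0.10 to 0.53 over their 4 probe sets, none of which reached 1.5-fold.

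A probe set was counted in a comparison where the higher of its arrays reached 5.65, the median of all values. In AMAP at 2 h, 2 of 14 counted probe sets were at least 2-fold higher than in control and none was lower by as much, where 1.36% of all probe sets were at least 2-fold higher and 0.391% lower. At 1.5-fold the count was 8 of 14, from 3 genes, where 3.96% of all probe sets were 1.5-fold higher and 2.94% lower. In APAP at 2 h, 1 of 13 was at least 2-fold lower than in control, where 1.09% of all probe sets were, and none was 2-fold higher, where 0.895% of all were. At 1.5-fold the count in APAP was again 1 lower and none higher, beside 5.91% lower and 4.48% higher of all. For APAP against AMAP at 2 h, 2 of 14 were at least 2-fold lower in APAP, where 1.16% of all were, and 8 of 14, from 4 genes, were 1.5-fold lower, where 4.79% of all were. No probe set stood 2-fold or 1.5-fold above AMAP in APAP, beside 0.417% and 3.04% of all. Probe sets of 1 gene share a transcript, and all 5 of Ndrg1 are among each group of 8. The 2 that were 2-fold higher in AMAP than in control are both of Plod2. Of these, 1416686_at was counted through AMAP only, at 6.44 against 5.42 in control. Ndrg1 1423413_at was likewise counted through AMAP only, at 6.19 against 5.29 in control and 5.46 in APAP. The shares of all probe sets follow the same counting rule.

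**Figure D1:**
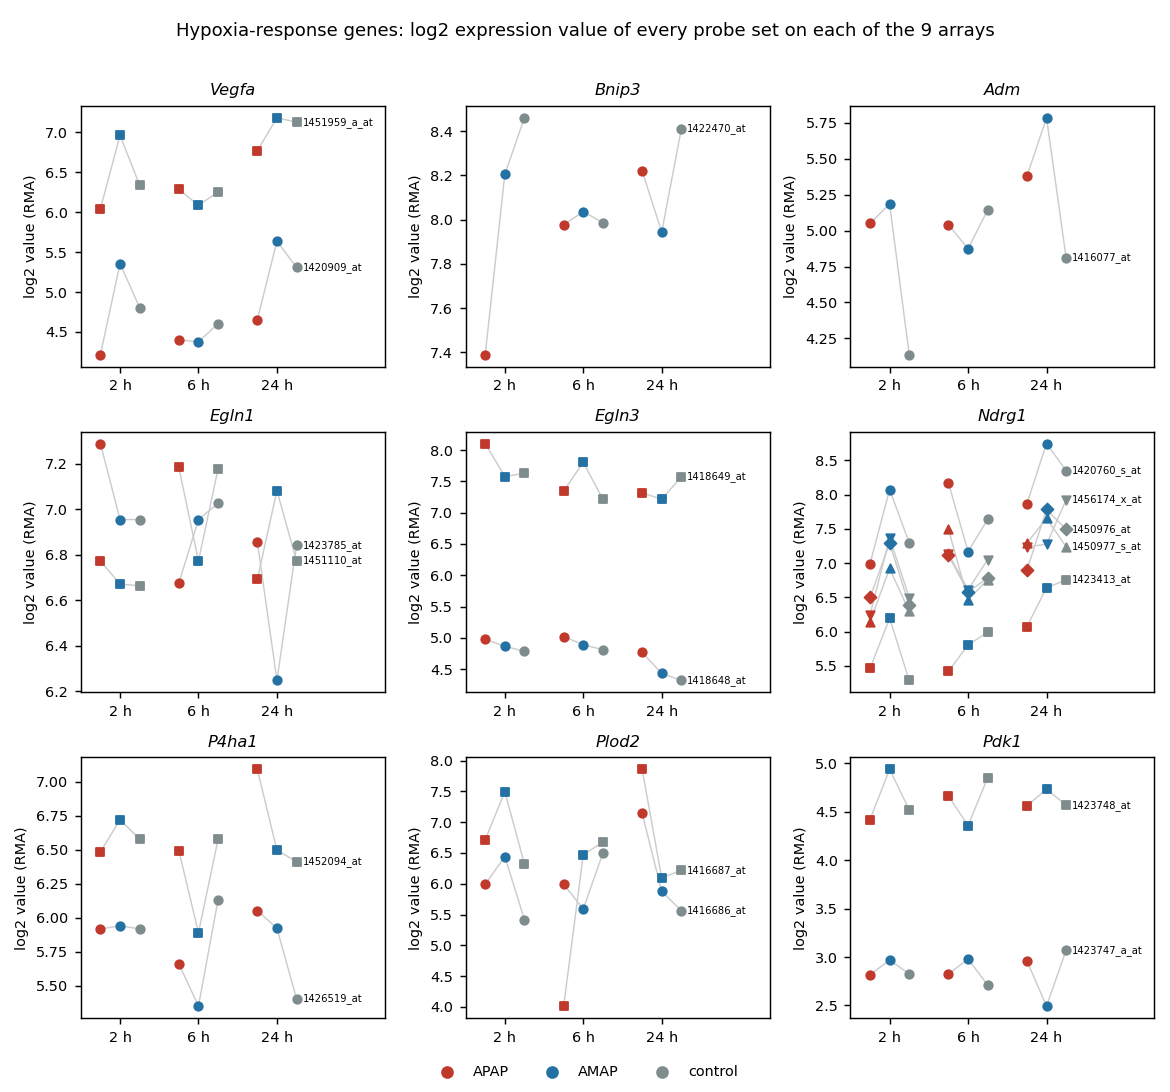
Log2 expression value (RMA, vertical axis, scaled separately for each gene) of every probe set of the 9 measured genes on each of the 9 arrays, with APAP, AMAP and control from left to right at each time. Points of 1 probe set at 1 time are joined by a line, and marker shapes tell probe sets of a gene apart. At 2 h AMAP is the highest of the 3 arrays for all 5 probe sets of Ndrg1 and for both of Vegfa and of Plod2, and Bnip3 is lowest in APAP at 7.39.

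Ndrg1, a stress-responsive gene linked to differentiation and to restraint of metastasis, gave the most redundant reading. Its brightest probe set, 1420760_s_at, read 6.99 in APAP, 8.07 in AMAP and 7.30 in control at 2 h. The other 4 lay between 5.46 and 6.50 in APAP, between 6.19 and 7.37 in AMAP and between 5.29 and 6.50 in control. For each of the 5, AMAP was the highest array of that time. The differences of AMAP minus control ran from 0.63 to 0.91, and 1.65% to 3.51% of all counted probe sets lay as high. The differences of APAP minus AMAP ran from -1.13 to -0.73, and APAP minus control ran from -0.31 to 0.18, with both signs among the probe sets. For 1423413_at and 1450976_at, both 0.91 higher in AMAP than in control, the 2 h control is the lowest of the 9 arrays. For 1420760_s_at, 1450977_s_at and 1456174_x_at the lowest is APAP at 2 h.

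Vegfa encodes the main growth factor for vessel endothelium. Its brighter probe set, 1451959_a_at, read 6.04 in APAP, 6.96 in AMAP and 6.34 in control at 2 h, and the dimmer one, 1420909_at, read 4.21, 5.36 and 4.80 in the same order. Both put AMAP highest and APAP lowest. The brighter one was 0.62 log2 higher in AMAP than in control and 0.92 lower in APAP than in AMAP, where 1.45% of all counted probe sets lay as low.

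Adm, which encodes the vasodilator peptide adrenomedullin, was dim throughout. It read 5.05 in APAP, 5.18 in AMAP and 4.14 in control at 2 h. Both compounds lay above control, by 0.91 and 1.05, and the compounds lay within 0.13 of each other. That control value is the lowest of the 9 arrays, and the controls of 6 and 24 h read 5.14 and 4.81. All 3 values of 2 h are below the array median, where RMA narrows differences.

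Plod2 encodes the lysyl hydroxylase of collagen telopeptides and P4ha1 a catalytic subunit of collagen prolyl 4-hydroxylase. Plod2 probe set 1416687_at read 6.71 in APAP, 7.50 in AMAP and 6.32 in control at 2 h, and 1416686_at read 5.99 in APAP, 6.44 in AMAP and 5.42 in control. Both were at least 2-fold higher in AMAP than in control, at 1.18 and 1.02, and these were the largest readings against control of the expressed members in AMAP. Both also placed APAP between AMAP and control. For 1416686_at the 2 h control is the lowest of the 9 arrays, and the controls of 6 and 24 h read 6.50 and 5.56. For 1416687_at the controls of 6 and 24 h read 6.67 and 6.22. P4ha1 showed little at 2 h: its probe set 1452094_at read 6.48 in APAP, 6.72 in AMAP and 6.58 in control, and 1426519_at lay at 5.92, 5.94 and 5.92.

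Bnip3, a mitochondrial BH3-type protein that marks mitochondria for autophagy, was bright, with a mean of 8.07. At 2 h it read 7.39 in APAP, 8.21 in AMAP and 8.46 in control. The APAP value is the lowest of all 9 arrays, whose other values ran from 7.94 to 8.46. That control value is the highest of the 9, and the controls of 6 and 24 h read 7.99 and 8.41. At 2 h Bnip3 was 2.10-fold lower in APAP than in control, and 0.782% of counted probe sets lay as low. Bnip3 was thus the only member probe set 2-fold from control in APAP at 2 h. Pdk1, the kinase that holds pyruvate back from the mitochondrial dehydrogenase, read at most 4.94 on any array, below the array median, and is given no comparison.

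Egln1 (PHD2) and Egln3 (PHD3) are the oxygen-sensing prolyl hydroxylases that HIF itself induces. Egln3 probe set 1418649_at read 8.10 in APAP, 7.57 in AMAP and 7.63 in control at 2 h, and 8.10 is its highest value of the 9 arrays. The dim second one, 1418648_at, read 4.98 in APAP, 4.87 in AMAP and 4.79 in control, with APAP again highest. Egln1 probe set 1423785_at read 7.29 in APAP, 6.95 in AMAP and 6.95 in control. None of these reached 1.5-fold. The other Egln1 probe set, 1451110_at, read 6.77 in APAP, 6.67 in AMAP and 6.66 in control, and over the 9 arrays the 2 probe sets had a Pearson r of -0.45, so that Egln1 has no settled pattern.

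**Figure D2:**
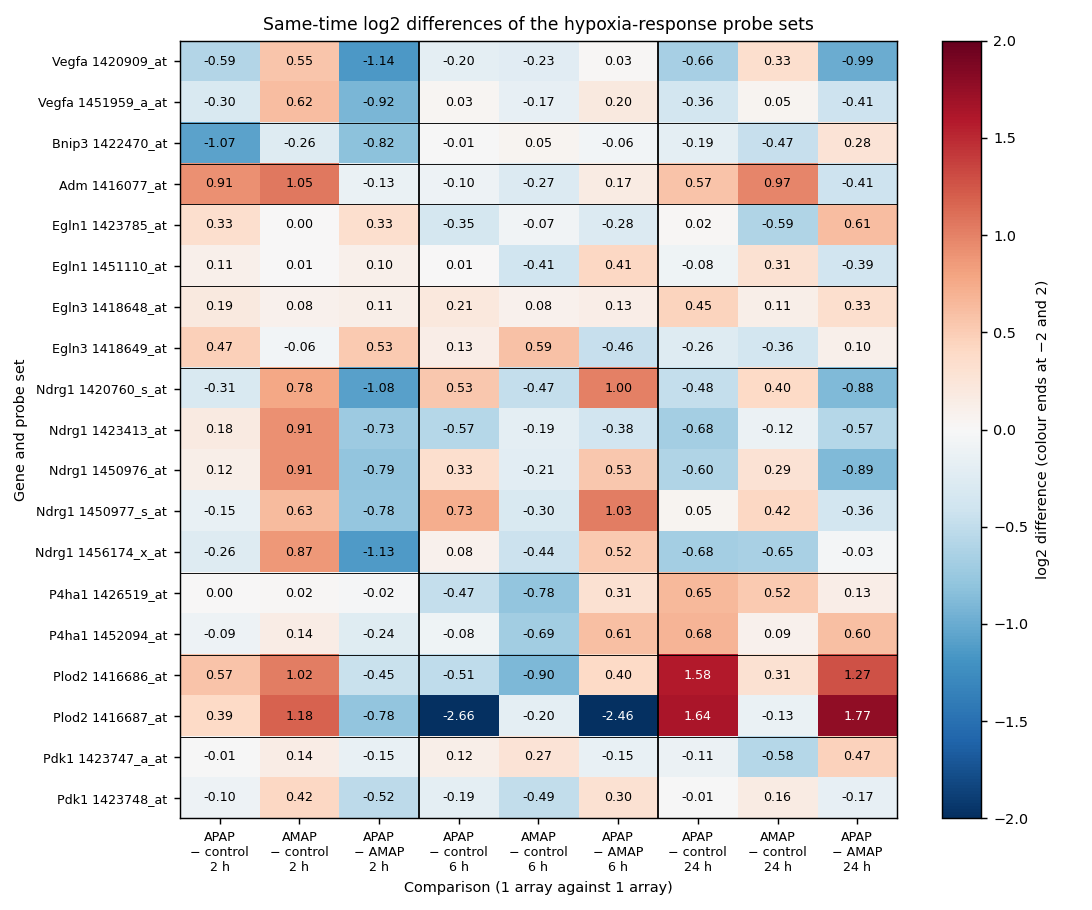
Log2 difference of each of the 19 probe sets (rows, by gene) in each of the 9 same-time comparisons of 1 array against 1 array (columns, grouped by time), with the value printed in each cell. Red is higher and blue lower in the treatment named first, and the colours end at -2 and 2. At 2 h the 10 probe sets of Vegfa, Bnip3, Ndrg1 and Plod2 are all negative in APAP minus AMAP, and at 6 h Plod2 1416687_at stands at -2.66 in APAP minus control.

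Agreement of probe sets over the 9 arrays sets how far each gene can be read. The 2 probe sets of Vegfa had r = 0.93, the 10 pairs among the 5 of Ndrg1 ran from 0.60 to 0.96, and P4ha1 had 0.75. Plod2 had 0.51, Egln3 0.33 and Pdk1 -0.29. These are descriptions over the same 9 arrays.

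At 6 h AMAP no longer read above control for the genes that led at 2 h. In AMAP 12 of the 14 counted probe sets were lower than in control, with a median of -0.25 log2, while all counted probe sets had a median of -0.07 and 39.8% of them were higher. Ndrg1 lay between -0.47 and -0.19 and Vegfa at -0.23 and -0.17. The lowest differences were those of Plod2 1416686_at, at -0.90, and of both P4ha1 probe sets. P4ha1 1426519_at read 5.35 in AMAP, against 6.13 in control, and 1452094_at read 5.89 in AMAP, against 6.58 in control. None of the 14 was 2-fold from control in AMAP, where 2.54% of all were 2-fold higher and 0.247% 2-fold lower. At 1.5-fold 1 was higher, Egln3 1418649_at, beside 7.94% of all, and 3 were lower, beside 4.55% of all. Of these 3, P4ha1 1426519_at and Plod2 1416686_at, at 5.59 in AMAP against 6.50 in control, were counted through control only.

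The APAP array at 6 h is 1 of the 3 with a low dap ratio, and 6.75% of its counted probe sets were at least 2-fold lower and 1.69% higher than in control. Of the 14 members 1 was, Plod2 1416687_at, which read 4.01 in APAP, 6.47 in AMAP and 6.67 in control. The second Plod2 probe set read 5.99 in APAP, 5.59 in AMAP and 6.50 in control at that time, a difference from control of -0.51. The value of 4.01 is therefore the reading of 1 probe set, which was counted against control through the control array only. At 1.5-fold 1 further member, Ndrg1 1450977_s_at, was higher in APAP than in control, beside 9.35% of all higher and 18% lower. The part of the array's low dap ratio in these values was not tested.

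Against AMAP at 6 h, Ndrg1 stood 2-fold higher in APAP by 2 probe sets. The probe set 1420760_s_at read 8.17 in APAP and 7.17 in AMAP, and 1450977_s_at read 7.49 in APAP and 6.46 in AMAP. The other 3 had differences of -0.38, 0.52 and 0.53. In that comparison 3.83% of all counted probe sets were 2-fold higher and 11.7% 2-fold lower. At 1.5-fold 3 members were higher in APAP and 1 was lower, beside 17.4% and 21.9% of all. Under cyclic loess, another scaling, 1 member probe set was 2-fold apart, against 3 as deposited, since the Ndrg1 differences of 1.002 and 1.03 became 0.98 and 0.97. Bnip3 read 7.98 in APAP, 8.04 in AMAP and 7.99 in control, so that its low value in APAP at 2 h had no counterpart at 6 h.

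At 24 h the member that stood out was Plod2. Both probe sets were higher in APAP: 1416687_at read 7.86 in APAP, 6.09 in AMAP and 6.22 in control, and 1416686_at read 7.14 in APAP, 5.87 in AMAP and 5.56 in control. Against control these are 3.11-fold and 2.99-fold, and 0.318% and 0.435% of counted probe sets lay as high. Against AMAP they are 3.40-fold and 2.41-fold. They were the 2 of 14 counted probe sets 2-fold higher in APAP than in control, where 3.12% of all were, and 2 of 15 against AMAP, where 2.08% of all were. No member was 2-fold lower in APAP, where 6.04% of all were against control and 1.67% against AMAP. At 1.5-fold 4 were higher and 3 lower than in control, beside 14.3% and 13.2% of all, and 4 were higher and 2 lower than in AMAP, beside 8.94% and 7.52% of all. P4ha1 read higher in APAP than in control by 0.65 and 0.68. Its probe set 1426519_at read 5.40 in control and was counted through APAP only. Against control, Plod2 1416686_at, at 5.56 in control, was likewise counted through APAP only. Both treated arrays of this time have low dap ratios, whose part in these values was not tested.

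Vegfa and Ndrg1 again read lower in APAP than in AMAP at 24 h. Vegfa read 6.77 in APAP, 7.18 in AMAP and 7.13 in control for 1451959_a_at, and 4.65, 5.64 and 5.31 in the same order for 1420909_at. Ndrg1 differed by -0.89 to -0.03 between APAP and AMAP. Adm reached its highest value, 5.78, in AMAP, against 4.81 in control, and read 5.38 in APAP. In AMAP none of 15 counted probe sets was 2-fold from control, where 0.684% of all were 2-fold higher and 4.89% 2-fold lower. At 1.5-fold 1 was higher, Adm, and 2 were lower, beside 9.17% and 11.7% of all. Adm, at 4.81 in control and not expressed by its mean of 5.04, was counted through AMAP only.

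The same genes also differed between times in control medium. Control Ndrg1 was higher at 24 h than at 2 h by 0.94 to 1.47 log2 over its 5 probe sets, and Vegfa by 0.79 and 0.50. The AMAP array of 2 h, with Ndrg1 1420760_s_at at 8.07, thus lay nearer to the 24 h control, at 8.35, than to its own control at 7.30. Control Bnip3 differed by -0.05 from 2 to 24 h but by -0.47 from 2 to 6 h. In control, Plod2 1416686_at differed by 1.08 from 2 to 6 h and by -0.93 from 6 to 24 h. Its other probe set, 1416687_at, differed by 0.35 and -0.45 over the same steps. Over the 3 control arrays the SD of the member probe sets, which includes culture time, ran from 0.09 to 0.73.

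The test that the design allows asks whether the mean difference over the 3 times, here the shared difference, departs from 0. Limma was fitted to the 11313 expressed probe sets with time as a block and 4 residual degrees of freedom. Change of a difference between times counts as spread. No probe set passed a Benjamini-Hochberg adjusted p under 0.05 in any contrast, so that 0% of all and 0 of 14 members were called each time. At an unadjusted p under 0.05 the APAP to control contrast held 869 of all probe sets (7.68%) and 0 members. The AMAP to control contrast held 46 (0.407%) and 0 members, and the APAP to AMAP contrast 440 (3.89%) and 1 member. On simulated arrays of 11313 probe sets, a small part was changed in APAP by the same amount at all 3 times. For APAP against control this fit found 10% of those changed by 1 log2 and 88.5% of those changed by 2. Differences that vary between times, as those of the members did, were not simulated.

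The member with the unadjusted p under 0.05 was Ndrg1 1423413_at, at -0.56 ± 0.24 (SE) for APAP minus AMAP with a limma adjusted p = 0.867, and it was lower in APAP at all 3 times. Vegfa 1451959_a_at stood at -0.38 ± 0.23 in that contrast (limma adjusted p = 0.867), lower in APAP at 2 of 3 times. Bnip3 stood at -0.42 ± 0.25 for APAP minus control (limma adjusted p = 0.625), lower at 3 of 3 times but by only 0.01 at 6 h. Both values rest largely on 2 h: without that time Vegfa was at -0.11 and Bnip3 at -0.10, and without 6 h Vegfa was at -0.67. For Plod2 1416687_at, whose differences changed sign between times, the residual SD was 1.29, the largest of the members. None of these shared differences passes the correction.

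Beyond the members, 70 other genes of the HIF pathway were taken as a list by role, of which 60 had a probe set and 45 were expressed, each read by its brightest probe set. At 2 h in AMAP 29 of the 45 were higher than in control and 15 lower, with a median of 0.13 log2, while all 6707 expressed genes had a median of -0.01 and 45.1% were higher. In APAP 21 were higher and 24 lower, with a median of -0.005, beside -0.01 and 45.3% higher for all. For APAP minus AMAP 17 were higher and 28 lower, with a median of -0.11, beside 0.00 and 46.6% higher for all. The 7 members expressed had medians of 0.14 in AMAP minus control, -0.09 in APAP minus control and -0.78 in APAP minus AMAP at 2 h. With the dim genes Adm and Pdk1 included, the medians were 0.42 in AMAP minus control and -0.52 in APAP minus AMAP. Over the 14 counted probe sets, 5 of them of Ndrg1, they were 0.63 and -0.75.

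In AMAP the 2 genes at least 2-fold higher than control at 2 h were Ddit4, the REDD1 inhibitor of mTOR signalling, at 8.69 in AMAP, against 7.67 in control, and Hk2, which phosphorylates glucose, at 7.95 in AMAP, against 6.94 in control. Slc2a1, the GLUT1 glucose carrier, followed at 0.91, and 1.24% of all expressed genes were 2-fold higher. Hk2 was also 0.68 higher in APAP than in control, while Ddit4 was at -0.50 there. In APAP the 3 genes 2-fold higher than control were Edn1, the vasoconstrictor endothelin, at 8.89 in APAP, against 7.05 in control, Pfkfb3, which makes the allosteric activator of phosphofructokinase, at 7.26 in APAP, against 6.07 in control, and the clock-linked repressor Bhlhe40 at 9.49 in APAP, against 8.44 in control. Of all expressed genes 0.805% were. In AMAP these 3 read 0.49, 0.52 and 0.78 higher than in control, in the order named.

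At the low end in APAP was the cyclin-related gene Ccng2, at 6.76 in APAP, against 8.52 in control, where 1.04% of all expressed genes were 2-fold lower. Rora and Kdm4b followed in APAP at -0.78 and -0.76. In AMAP the lowest were Hif3a (-0.80), Kdm4b (-0.44) and Insig2 (-0.37), and none of the 45 was 2-fold lower, where 0.373% of all were. Between the compounds, Ccng2 (-1.62) and Ddit4 (-1.52) were 2-fold lower in APAP, where 1.06% of all expressed genes were, and Mxi1 followed at -0.71. Edn1 (1.35) was 2-fold higher in APAP, where 0.403% of all were, with Pfkfb3 (0.67) and Hk1 (0.57) after it. Glucose and glycolysis genes had 10 of 13 higher than control in AMAP and 9 of 13 in APAP, with medians of 0.18 and 0.22, beside 45.1% and 45.3% of all expressed genes, and a median of -0.001 between the compounds. Growth, vessel and stress genes had 12 of 19 higher in AMAP and 7 of 19 in APAP. For regulators the counts were 3 of 7 and 2 of 7, for collagen and matrix genes 3 of 4 and 1 of 4. The pH and mitochondria genes had 1 of 2 and 2 of 2.

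**Figure D3:**
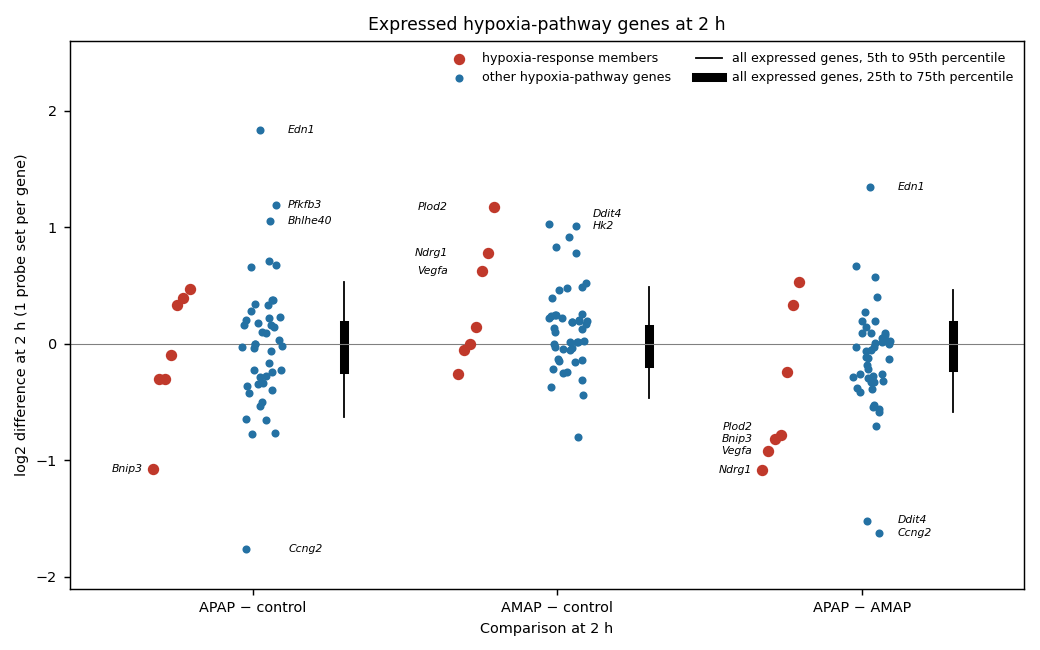
Log2 difference at 2 h, 1 probe set per gene, for the 7 expressed members (red) and the 45 other expressed hypoxia-pathway genes (blue) in the 3 comparisons, beside the spread of all 6707 expressed genes (black, thin line from the 5th to the 95th percentile and thick line from the 25th to the 75th). Horizontal position within a group only separates the points. In APAP minus AMAP Ndrg1, Vegfa, Bnip3 and Plod2 lie between -1.08 and -0.78, and the blue points at the ends are Edn1 and Ccng2.

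Transcripts of the HIF machinery were read at 2 h as follows. Hif1a, the oxygen-regulated alpha subunit, read 8.39 in APAP, 8.42 in AMAP and 8.23 in control by its brightest probe set, and its partner Arnt read 6.09, 6.14 and 6.13 in the same order. Vhl, which targets HIF alpha for degradation, read 6.13 in APAP, 6.38 in AMAP and 6.41 in control, and Egln2, a further HIF prolyl hydroxylase, read 8.19, 8.17 and 8.42. Epas1, the HIF-2 alpha subunit, was not expressed by its mean and read 5.03 in APAP, 6.26 in AMAP and 5.60 in control, a difference of -1.23 between APAP and AMAP. Hif3a, a further alpha subunit, read 7.05 in APAP, 6.64 in AMAP and 7.44 in control. Of these genes Epas1 and Hif3a differed most between arrays of that time, and Arnt least. Hif1an has no probe set under that symbol. HIF activity is set mainly by protein stability, which an array does not measure.

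At 24 h Hif1a read 7.18 in APAP, 8.28 in AMAP and 8.61 in control by the same probe set, and its second expressed one, 1448183_a_at, read 6.81, 7.15 and 6.92, so that a difference of -1.43 from control in the first stood beside -0.11 in the second. At 6 h the same pair differed by -0.29 and 0.55 in APAP minus control. The Hif1a readings of the later times are therefore those of single probe sets.

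At the later times few genes of the list were 2-fold apart, and these are named after their values were seen. At 6 h Igfbp3, an IGF-binding protein, read 7.81 in APAP, 9.11 in AMAP and 9.45 in control. It was the 1 gene 2-fold lower in APAP than in control, where 5.25% of all genes were, and none was higher, where 0.895% of all were. The APAP array of this time has a low dap ratio, whose part in its comparisons with control and AMAP was not tested. Against AMAP, Igfbp3 (-1.30) and Hif1a (-1.14) were lower in APAP, where 7.74% of all were, and the heme oxygenase gene Hmox1 (1.08) was higher, where 2.8% of all were. The second expressed Hif1a probe set, 1448183_a_at, went the other way there, at 0.71. In AMAP none of the 45 was 2-fold from control, where 0.924% of all were higher and 0.179% lower, but 36 of them read lower and 9 higher, with a median of -0.20, beside -0.10 for all genes, of which 34.2% read higher.

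At 24 h Angptl4, an inhibitor of lipoprotein lipase, read 10.13 in APAP, 9.12 in AMAP and 8.66 in control, and the lysyl hydroxylase Plod1 read 8.14 in APAP, against 6.84 in control. They were the 2 genes 2-fold higher in APAP than in control, where 2.76% of all genes were, and Bhlhe40 (-1.78) and Hif1a (-1.43) were the 2 lower, where 3.85% of all were. Bhlhe40 thus read higher than control in APAP at 2 h and lower at 24 h. Against AMAP, Angptl4 (1.01) and Igfbp3 (1.20) were higher in APAP, where 1.48% of all were, and Bhlhe40 (-1.67) and Hif1a (-1.10) were lower, where 1.4% of all were. The second expressed Hif1a probe set stood at -0.11 against control and at -0.34 against AMAP. In AMAP, Igfbp3 (-1.27) was the 1 gene 2-fold lower than control, where 2.64% of all were, and none was higher, where 0.522% of all were. Igfbp3 read lowest on the 3 arrays with low dap ratios. It read 7.59 in AMAP at 24 h, 7.81 in APAP at 6 h and 8.78 in APAP at 24 h, with the 24 h control next at 8.86. The part of the low dap ratios in the 24 h values was not tested.

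By log2 values over the 9 arrays, the expressed genes most like Plod2, Ndrg1 and P4ha1 were these. Among the 7 expressed members, each by its brightest probe set, these 3 had the widest range. Cadm1 (Pearson r = 0.975), Apaf1 (0.973) and Pdlim1 (0.963) were nearest to Plod2 1416687_at, Phf10 (0.965), Atf4 (0.961) and Slc16a6 (0.954) to Ndrg1 1420760_s_at, and Iqsec1 (0.960), Nanos1 (0.935) and H2ac19 (0.930) to P4ha1 1452094_at. The range of Plod2 1416687_at starts at the 4.01 of the 6 h APAP array, where the second Plod2 probe set read 5.99. How far its likeness rests on that value was not tested. The arrays share scaling, and 3 of them stand apart, so these values describe likeness on these arrays.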

How the data were processed

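Per the submitters' processing notes, the deposited log2 values per probe set were made by the authors with RMA in Affymetrix Expression Console, in a version not given in the sources used here. Since RMA gives every array the same probe intensity distribution, it cannot show a shift in overall RNA amount, and differences between low values come out smaller. Per the labels, each treatment used 2 dishes. Groups came from sample titles. Of 22690 probe sets, 64 array controls were left out of all tests; 20380 have 1 gene symbol, 691 several and 1555 none. Gene-level values use the probe set with the highest mean (12393 genes). Same-time differences are first minus second treatment. The shared fit used limma 3.58.1 in R 4.3.3 and was tested on simulated data. Members and lists were chosen with earlier results of these data known. Genes named beside the members are the 3 highest and lowest of the list at 2 h per comparison, those 2-fold apart at 2 h, 6 regulators, and the 3 genes most like each of the 3 expressed members of widest range by their brightest probe set. List genes 2-fold apart at 6 or 24 h were named after their values were seen. Alternatives were other thresholds, filters, scalings, probe-set rules, priors and left-out times; leaving out the 3 arrays with low dap ratios was chosen after seeing the data.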

Additional observations from a re-analysis of the deposited data

Results flagged for a closer look

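Differences of at least 2-fold with opposite sign at different times were seen in 2 member probe sets, and the change between times was not tested. Plod2 1416687_at was at -2.66 log2 in APAP minus control at 6 h and at 1.64 at 24 h, and in APAP minus AMAP it was at -2.46 at 6 h and 1.77 at 24 h. Its second probe set, 1416686_at, stood at -0.51 and 1.58 against control and at 0.40 and 1.27 against AMAP at these times. Ndrg1 1420760_s_at was at -1.08 in APAP minus AMAP at 2 h and at 1.002 at 6 h, which was 0.98 under cyclic loess. Every 6 and 24 h value here includes an array with a low dap ratio. Each value is 1 array against 1 array.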

How the results depend on the processing

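At 1.5-fold in place of 2-fold, the member probe sets apart numbered 8 for AMAP against control at 2 h (2 at 2-fold), 8 for APAP against AMAP at 2 h (2), 2 for APAP against control at 6 h (1), 4 for AMAP against control at 6 h (0), 7 for APAP against control at 24 h (2), 3 for AMAP against control at 24 h (0) and 6 for APAP against AMAP at 24 h (2). Under cyclic loess the count for APAP against AMAP at 6 h was 1, against 3. Without the filter on level, which adds the dim genes Adm and Pdk1, the median of the members at 2 h was 0.42 for AMAP minus control and -0.52 for APAP minus AMAP, against 0.14 and -0.78. When probe sets of a gene were averaged, 2 list genes were 2-fold apart for APAP against AMAP at 24 h, against 4. In the limma fit 0 members were called in every alternative run, with adjusted p between 0.606 and 1 for Bnip3, Ndrg1 and Vegfa as named, and leaving out each time gave 0 to 0 calls, while the shared differences ranged from -0.67 to -0.11 for Vegfa and from -0.63 to -0.10 for Bnip3. Of the 13 differences of at least 2-fold among members, 5 in 3 genes come from the 4 comparisons without an array of low dap ratio. The limma fit pairs treatments by time; without the time block it also called 0 members. Without the 3 arrays of low dap ratio 1 APAP array is left, assumed to vary like the others.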
